A study of Mus musculus with 12 samples.

Results

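The 32 genes described here code for the machinery that folds proteins in the endoplasmic reticulum (ER) and for the unfolded protein response that adjusts it. They were taken by symbol from the 55487 genes of the deposited count tables, and all 32 were found and passed the filter on low counts that left 19581 genes to test. Of the 32, 26 belong to the ER itself (5 chaperones, 4 disulfide isomerases, 6 co-chaperones and secreted factors, 6 genes of ER-associated degradation, and 5 genes for the stress sensors and the transcription factor Xbp1) and 6 belong to the Atf4 branch (Atf4, Ddit3, Trib3, Asns, Chac1 and Sesn2).

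RNA was sequenced from 12 samples of young adult C57BL/6 mice, in 4 groups of 3: SI tissue, LI tissue, SI monolayers and LI monolayers, where SI is the small and LI the large intestine. Tissue libraries each came from the fresh intestine of 1 mouse. They are titled as crypts and labelled as in vivo tissue, and the study's methods describe isolated crypts. Monolayer libraries were each made from pooled wells, in which crypts had been plated on Matrigel and cultured for 24 h, first briefly with CHIR-99021, EGF, LDN-193189, R-spondin-1, Wnt3a and the kinase inhibitor Y-27632, and then with Wnt3a, EGF, Noggin and R-spondin-1. The base of the medium held non-essential amino acids, a stable form of glutamine, pyruvate and N-acetylcysteine. For plating, SI crypts came from the jejunum and were released with EDTA in the cold, whereas LI crypts were released at body temperature with collagenase, dispase, DNase and EDTA after cutting the intestine into pieces, and the LI cultures are described as coming from the mice that gave the SI cultures. In the cultures, region and isolation method cannot be told apart. The same holds for the tissue libraries if their crypts were released in these ways, which the sequencing methods do not state. All comparisons between regions below carry this limit. Mice of both sexes were used, and no label says which animals a library came from or whether tissue and monolayers shared them. The p-values below rest on 1 spread within groups, estimated over all 12 libraries, between mice in tissue and between pooled wells in monolayers. Whether the pooled wells of a group came from different mice is not stated. The spread of monolayers may therefore hold no variation between animals.

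Proteins bound for the membrane or for secretion enter the ER unfolded and are folded by chaperones, joined by disulfide isomerases and, where folding fails, sent back to the cytosol for destruction. When unfolded protein builds up, the sensors Ire1 (Ern1, and Ern2 in mucosal epithelium), Perk (Eif2ak3) and Atf6 raise the production of folding and degradation proteins, through spliced Xbp1, through cleaved Atf6 and through phosphorylation of eIF2alpha, which favours translation of Atf4. Atf4 is also switched on by other eIF2alpha kinases, for instance by amino acid shortage, so its targets and the ER chaperones can be read apart. Gene counts show neither Xbp1 splicing, Atf6 cleavage, eIF2alpha phosphorylation nor Atf4 translation. In the intestine this machinery is known chiefly for its load in goblet and Paneth cells, which secrete large amounts of mucin and antimicrobial protein.

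The promoters of both sets are known for different elements, and short stretches are shown because the sets were read apart. High shares of these elements in their own sets are therefore known beforehand and are given as description. RefSeq windows on GRCm38.p6, from 250 bases before to 50 after the gene's start, were at hand for 27 of the 32 genes (all but Hyou1, Manf, Derl1, Ern2 and Atf6). The ER stress element, searched on both strands as CCAAT and CCACG with any 9 bases between them, stood in the windows of 9 of 21 ER genes (42.9%) and of 0 of the 6 genes of the Atf4 branch, against 37 of 27025 genes with a window (0.137%). All 4 chaperones with a window had it, as did Pdia6, Creld2, Dnajc3, Syvn1 and Derl3. The ATF4 element, searched on both strands as TGATGNAAN, stood in 3 of 6 windows of the Atf4 branch (50%) and in 1 of 21 of the ER genes (Herpud1), against 4.50% of genes with a window. The shorter sequence TGACGTGG, to which Xbp1 can bind, stood in 0 of 27 windows, against 0.714% of genes. No window held both of the first elements. Each stretch below is read 5′ to 3′ on the gene's strand with the element in capitals. Where the match lies on the other strand the capitals are its reverse complement. The ER stress elements of the chaperones and of Derl3 lay at 65 to 47 bases (Hspa5), 162 to 144 bases (Calr), 145 to 127 bases (Canx), 212 to 194 bases (Hsp90b1), 107 to 89 bases (Hsp90b1) and 156 to 138 bases (Derl3) before the start site. The ATF4 elements lay at 23 to 15 bases (Asns), 194 to 186 bases (Chac1) and 113 to 105 bases (Herpud1) before it, and that of Trib3 at 14 to 22 bases after it. These positions depend on the annotation: from the outermost start in GENCODE, the Hspa5 element lay 56 to 74 bases and the Asns element 23 to 31 bases after the start, the Trib3 element lay 15 to 7 bases before it, and the others shown lay before it.
Hspa5 (ER stress element, chr2:34772020-34772048, plus strand): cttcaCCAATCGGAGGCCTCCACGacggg
Hsp90b1 (ER stress element, chr10:86705633-86705661, minus strand): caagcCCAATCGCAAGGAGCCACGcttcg
Hsp90b1 (ER stress element, chr10:86705528-86705556, minus strand): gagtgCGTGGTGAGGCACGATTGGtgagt
Calr (ER stress element, chr8:84847070-84847098, minus strand): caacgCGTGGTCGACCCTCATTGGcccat
Canx (ER stress element, chr11:50325795-50325823, minus strand): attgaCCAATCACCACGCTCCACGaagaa
Derl3 (ER stress element, chr10:75893237-75893265, plus strand): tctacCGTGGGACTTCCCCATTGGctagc
Asns (ATF4 element, chr6:7693214-7693242, minus strand): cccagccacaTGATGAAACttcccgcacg
Chac1 (ATF4 element, chr2:119351038-119351066, plus strand): cttccctgccGTTGCATCActcctgccag
Trib3 (ATF4 element, chr2:152344029-152344057, minus strand): ttagctcaggTTTACATCAgccgggcggg
Herpud1 (ATF4 element, chr8:94386306-94386334, plus strand): accacggcggGTTGCATCAgcccgcaccc

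Depth was between 59016196 and 76216530 counts per library. Mitochondrial transcripts took 4.56% to 9.16% of counts in SI tissue, 2.25% to 2.59% in LI tissue, 0.472% to 0.559% in SI monolayers and 0.704% to 0.750% in LI monolayers. The 10 markers of intestinal epithelium summed to between 948793 and 2284341 normalized counts in every library, so that all 4 groups held epithelium. The 10 immune markers summed to between 16211 and 19186 in SI tissue and between 3588 and 3976 in SI monolayers, and to between 3966 and 4605 in LI tissue and between 562 and 721 in LI monolayers. By the call defined below, enterocyte markers were lower in monolayers for 6 of 10 genes in SI and 5 of 10 in LI. Paneth markers were lower for 1 of 8 and 2 of 8, and mesenchymal markers for 2 of 10 and 3 of 10, with 3 mesenchymal markers higher in LI. Over all genes tested 16.4% were called lower in SI and 23.5% in LI, and 14.5% higher in LI. The Paneth and mesenchymal counts of lower genes were near those shares. The 8 Paneth markers summed to between 364523 and 1782641 in SI tissue and between 488739 and 528038 in SI monolayers. In LI they summed to between 31540 and 68345 in tissue and between 4464 and 6076 in monolayers. In bulk RNA of this kind, fewer cells of a type and less RNA per cell cannot be told apart.

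After 24 h in culture the Atf4 branch was higher in both regions, while most ER genes moved by less than 2-fold and in both directions. A gene was called when the edgeR quasi-likelihood test, adjusted by Benjamini-Hochberg over 19581 genes, gave an adjusted p under 0.05 and the difference was at least 2-fold, and the words rose and fell are used below for an adjusted p under 0.05. In SI monolayers against SI tissue 4 of the 32 genes were called higher and 1 lower, against 9.71% and 16.4% of all genes tested. In LI monolayers against LI tissue 6 were called higher and 2 lower, against 14.5% and 23.5%. With no minimum fold the counts were 12 higher and 9 lower in SI (29% and 30.6% of all genes) and 12 and 12 in LI (32.1% and 36.6%), in all 21 of 32 in SI against 59.6% of all genes and 24 of 32 in LI against 68.7%. The share of the 32 genes with any call was thus below the background in both regions, with 5 of 32 against 26.1% in SI and 8 of 32 against 38% in LI, and the calls lay mostly in the 6 genes of the Atf4 branch. This branch held 4 of 4 genes called higher in SI and 5 of 6 in LI, with 0 called lower by edgeR or DESeq2 and 0 lower at an unadjusted p under 0.05. Of the 26 ER genes, 0 were called higher in SI by edgeR or DESeq2 (6 at an unadjusted p under 0.05) and 1 in LI (Eif2ak3). With no minimum fold, 6 of the 26 were higher and 9 lower in SI, and 6 and 12 in LI, beside the shares given above.

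The median log2 fold change of the Atf4 branch was 2.04 in SI and 1.76 in LI, and that of the 26 ER genes was -0.07 and -0.10, beside -0.05 and -0.05 over all genes tested. In shares of all counts, the Atf4 branch took 0.0358% ± 0.00360 of SI tissue and 0.106% ± 0.00209 of SI monolayers, and 0.0248% ± 0.000793 of LI tissue and 0.0726% ± 0.00204 of LI monolayers (mean ± SD, n = 3). The ER genes took 0.693% ± 0.0180 and 0.665% ± 0.00592 in SI, and 0.655% ± 0.0213 and 0.556% ± 0.00239 in LI. The libraries of tissue and monolayers did not overlap for 22 of the 32 genes in SI and 27 in LI, against 66.4% and 73% of all genes tested. Within groups, the median coefficient of variation of the 32 genes was 6.73% in SI tissue, 5.12% in LI tissue, 2.13% in SI monolayers and 2.84% in LI monolayers. The widest spread among tissue libraries was that of Trib3 in LI tissue (93.9%) and of Chac1 in SI tissue (55.6%).

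**Figure D1:**
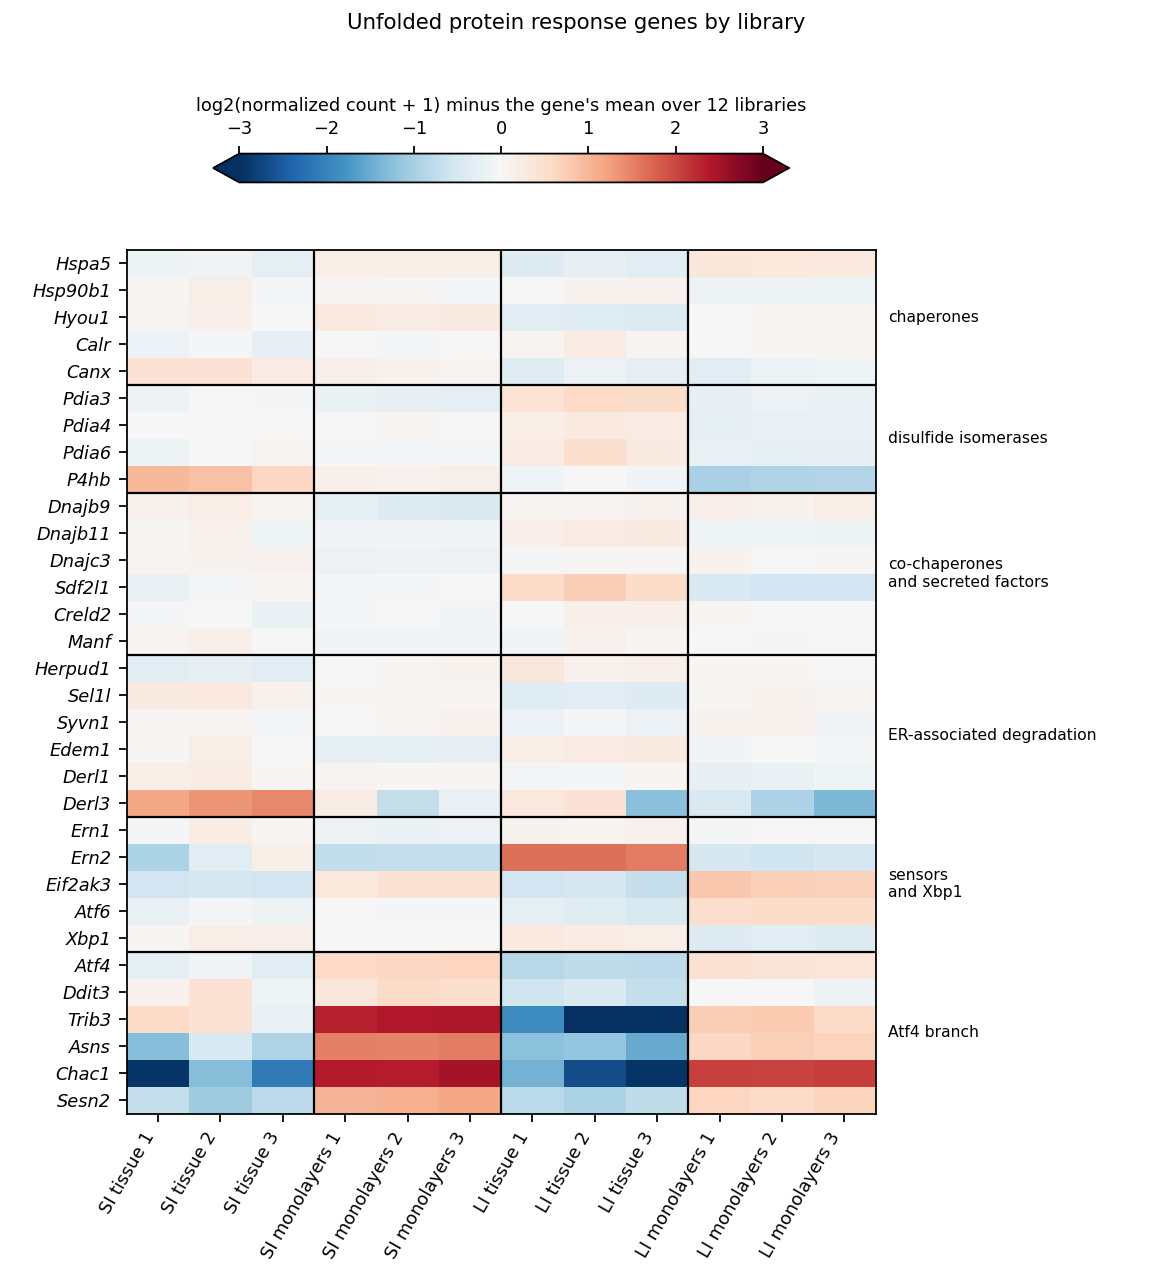
Level of each of the 32 genes in the 12 libraries, as log2(normalized count + 1) minus that gene's mean over the libraries, with red above and blue below the mean and colours saturating at 3. Genes are grouped by role. In the Atf4 branch at the bottom, Atf4, Trib3, Asns, Chac1 and Sesn2 are red in the 6 monolayer libraries and mostly blue in the 6 tissue libraries, Ddit3 is near its mean in LI monolayers, and among the ER genes above it the strongest colours are those of P4hb, Sdf2l1, Derl3, Ern2 and Eif2ak3.

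Among the chaperones, Hspa5 (BiP), the main ER Hsp70 and the protein that holds the sensors inactive, rose in both regions by less than 2-fold. Its normalized counts were 48088, 49550.2 and 44598 in SI tissue and 61069.8, 60751 and 60395 in SI monolayers, and 40856, 44788 and 43059 in LI tissue and 67417, 66242 and 65637 in LI monolayers. Every monolayer library lay above every tissue library. The log2 fold change was 0.39 ± 0.05 in SI and 0.68 ± 0.05 in LI (adjusted p = 7.3e-06 and 7.2e-09). Hyou1, an Hsp110 that recharges BiP, rose likewise, by 0.22 ± 0.05 and 0.45 ± 0.05 on the log2 scale (adjusted p = 9.8e-04 and 4.8e-07). Hsp90b1 (Grp94), the ER Hsp90, did not follow them. It held 24302, 26318 and 22414 normalized counts in SI tissue and 24375, 23639 and 22377 in SI monolayers, which overlap, and it fell in LI by 0.19 on the log2 scale (adjusted p = 0.013). Of the exon bases of Hsp90b1, 15.7% are shared with other annotated genes, so a part of its counts is uncertain. The lectin chaperones of glycoproteins also split. Calr (calreticulin) rose in SI by 0.17 (adjusted p = 0.017) and gave -0.04 in LI (adjusted p = 0.57), and Canx (calnexin) fell in SI by 0.23 (adjusted p = 0.0059) and gave 0.10 in LI (adjusted p = 0.18). By edgeR and by DESeq2, 0 of the 5 chaperones were called in either region.

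The disulfide isomerases, which form and reshuffle disulfide bonds, were lower in LI monolayers. All 4 fell there, with log2 fold changes from -0.79 to -0.44, and 2 of 4 fell in SI, where the range was -0.64 to 0.07. Over all genes tested 36.6% fell in LI and 30.6% in SI. By edgeR and by DESeq2, 0 of the 4 isomerases were called in either region. P4hb, the first protein disulfide isomerase and also a subunit of prolyl hydroxylase and of the microsomal triglyceride transfer protein, had the highest level per kilobase of the 32 genes in SI tissue (52485 ± 6421 normalized counts per kilobase of exon, mean ± SD, n = 3) and in LI tissue (27834 ± 1307). Its normalized counts were 166250.2, 154079.5 and 130145 in SI tissue and 94179, 92209 and 95623 in SI monolayers. In LI they were 76299, 83678 and 78922 in tissue and 43088, 45133 and 46005 in monolayers. The groups did not overlap in either region, and the log2 fold changes were -0.64 ± 0.07 and -0.79 ± 0.07 (adjusted p = 9.0e-07 and 4.9e-08). Pdia3 (ERp57), the partner of calnexin and calreticulin, held 65471, 74214 and 71954 in LI tissue and 41474, 43609 and 42126 in LI monolayers, a log2 fold change of -0.69 ± 0.06, and in SI it fell by 0.15 (adjusted p = 3.0e-08 and 0.04 in that order). Pdia4 and Pdia6 fell in LI by 0.44 and 0.55, and their values in SI were 0.07 and 0.01 (adjusted p = 0.18 and 0.93). In LI monolayers the order per kilobase had shifted, with Calr at 19732 ± 662, Hspa5 at 15709 ± 214 and P4hb at 15638 ± 523, the last pair closer than their spread.

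Of the co-chaperones and secreted factors, Sdf2l1 was the one called, and only in LI. Sdf2l1 works in a complex with ER Hsp40 proteins. It held 6532, 7314 and 6464 normalized counts in LI tissue and 3184, 2923 and 2947 in LI monolayers, and 3807, 4286 and 4533 and 4273, 4310.3 and 4416 in SI tissue and SI monolayers. The LI groups stood apart and the SI groups overlapped. The log2 fold change was -1.12 ± 0.07 in LI (adjusted p = 4.4e-10) and 0.08 ± 0.07 in SI (adjusted p = 0.36). Dnajb9 (ERdj4), a BiP partner and a classical Xbp1 target, went the other way: it fell in SI, from 2929, 3077 and 2846 to 2236, 2040.3 and 1994 (-0.46 ± 0.06, adjusted p = 3.3e-06), and gave 0.10 in LI (adjusted p = 0.15). Dnajc3 (p58IPK), an inhibitor of Perk, fell in SI by 0.24 (adjusted p = 4.2e-04) and gave 0.09 in LI (adjusted p = 0.12), and Dnajb11 (ERdj3) fell in LI by 0.30 (adjusted p = 2.1e-04) and gave -0.07 in SI (adjusted p = 0.33). Creld2 and the secreted Manf, both known as ER stress genes, passed the test in neither region, with log2 fold changes between -0.13 and 0.08.

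The ER-associated degradation genes moved by less than 2-fold, apart from the rare Derl3. Herpud1, a membrane scaffold of the retrotranslocation complex and the ER gene with an ATF4 element in its promoter window, rose in SI from 5994, 6329 and 5887 to 7455, 7605 and 7975 normalized counts (0.37 ± 0.05, adjusted p = 1.9e-05) and fell in LI by 0.13 (adjusted p = 0.045). Sel1l, the adaptor of the ubiquitin ligase Syvn1 (Hrd1), did the reverse: it fell in SI by 0.15 (adjusted p = 0.014) and rose in LI, from 5525, 5686 and 5472 to 7229.7, 7642 and 7529 (0.47 ± 0.05, adjusted p = 3.2e-07). Syvn1 rose in LI by 0.24 (adjusted p = 0.0047) and gave 0.08 in SI (adjusted p = 0.33). Edem1, a lectin that extracts misfolded glycoproteins, fell in both regions, by 0.32 and 0.24 (adjusted p = 4.9e-05 and 5.6e-04). Derl1, a channel component, fell in LI by 0.13 (adjusted p = 0.038) and gave -0.07 in SI (adjusted p = 0.28). Derl3, the derlin typical of secretory cells such as plasma cells, was the least abundant of the 32 genes. It held 61.2, 68.8 and 75.3 normalized counts in SI tissue, 31.7, 16.0 and 22.8 in SI monolayers, 33.8, 36.6 and 10.7 in LI tissue and 19.3, 13.8 and 9.88 in LI monolayers. The SI groups stood apart and the LI groups overlapped, and Derl3 was called lower in SI (-1.51 ± 0.43, adjusted p = 0.0064) and not in LI (-0.86 ± 0.46, adjusted p = 0.11). Without LI tissue replicate 3 the LI value was -1.24 and was called (adjusted p = 0.016).

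The sensors did not move together, and Eif2ak3 and Ern2 in LI were called in opposite directions. Eif2ak3 (Perk) rose in both regions. Its normalized counts were 1648, 1696 and 1639 in SI tissue and 3017, 3271 and 3328 in SI monolayers, and 1645, 1733 and 1502 in LI tissue and 4304, 4025 and 3958 in LI monolayers. No monolayer library overlapped a tissue library. The log2 fold change was 1.38 ± 0.07 in LI, which was called, and 0.98 ± 0.06 in SI, which lay just under the 2-fold limit (adjusted p = 1.5e-11 and 2.0e-09 in that order). The SI value was 1.01 and was called in the fit of only the groups compared. It was between 1.01 and 1.06 and was called without SI monolayers replicate 1, SI monolayers replicate 2 or any 1 of the 3 LI monolayer libraries. Atf6 rose in LI, from 3625, 3475 and 3276 to 6437, 6571 and 6535 (0.96 ± 0.05, adjusted p = 6.4e-11), and by 0.14 in SI (adjusted p = 0.023). Ern1 (Ire1alpha) fell in SI by 0.22 (adjusted p = 0.0056) and gave -0.07 in LI (adjusted p = 0.32). Xbp1, the transcription factor activated by Ire1, fell in LI from 18785, 17796 and 17558 to 11715, 12153 and 11734 (-0.56 ± 0.05, adjusted p = 3.8e-08) and gave -0.09 in SI (adjusted p = 0.12). Ern2 (Ire1beta), the form of Ire1 found in mucus-secreting epithelium, was called lower in LI and is described with the goblet markers below. Exons of Eif2ak3 share 8.05% of their bases with an annotated gene on the other strand, and whether the counting used strand is not stated.

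**Figure D2:**
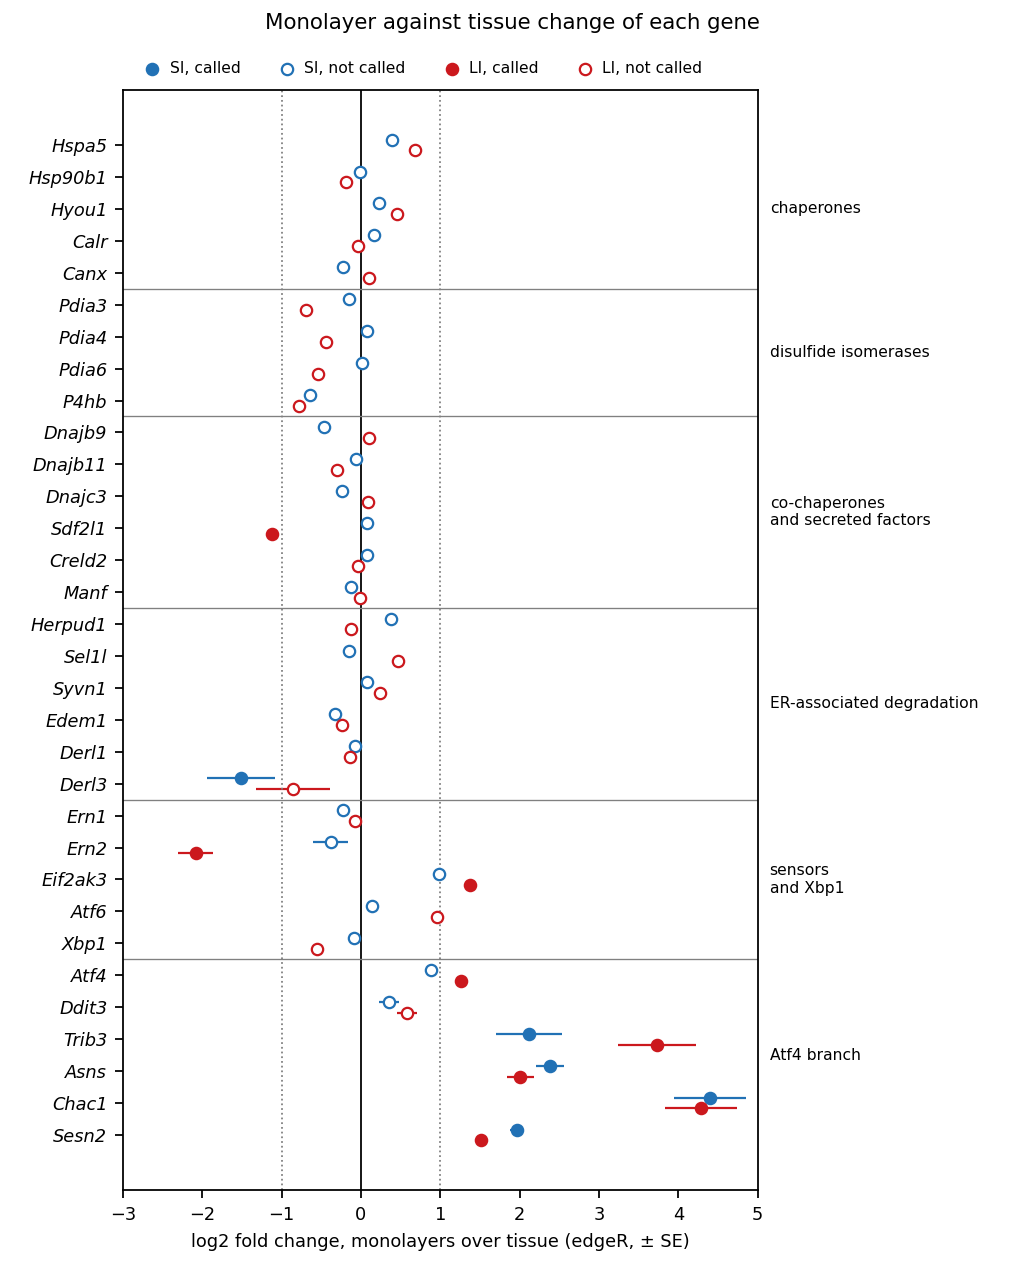
log2 fold change of monolayers over tissue for each of the 32 genes from the edgeR fit, in SI (blue) and LI (red), with bars of 1 SE, filled points for called genes and dotted lines at 2-fold. Trib3, Asns, Chac1 and Sesn2 lie to the right of the upper line in both regions, and Ern2 and Sdf2l1 lie to the left of the lower line in LI.

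The Atf4 branch rose as a whole, and 4 of its 6 genes were called higher in both regions. Over all genes tested that share was not counted, and it cannot exceed the 9.71% called higher in SI. Atf4, the transcription factor that gives the branch its name, held 17327, 19192 and 16679.7 normalized counts in SI tissue and 31501, 31815 and 32608 in SI monolayers. In LI it held 11589.6, 12190.2 and 12007 in tissue and 28719, 27392 and 26898 in monolayers. The groups did not overlap, and the log2 fold changes were 0.89 ± 0.06 in SI and 1.26 ± 0.06 in LI, of which the second was called (adjusted p = 1.2e-09 and 7.9e-12). Since Atf4 protein is set mainly by translation, its RNA is no measure of its activity. Chac1, which breaks down glutathione, had the largest fitted change of the 32 genes in each region. It held 151, 477 and 266 in SI tissue, 6015, 5922 and 6543 in SI monolayers, 434, 183 and 150.0 in LI tissue and 4786, 4738 and 4863 in LI monolayers. Its tissue libraries spread widely and its monolayer libraries lay close together and far above them, with log2 fold changes of 4.40 ± 0.46 and 4.28 ± 0.46, or 21.1-fold and 19.5-fold (adjusted p = 3.3e-05 and 2.9e-05). When each library was left out in turn, the log2 fold change lay between 4.09 and 4.90 in SI and between 4.02 and 4.89 in LI, and stayed called.

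Asns, which makes asparagine from aspartate and glutamine, held 3195, 5626 and 4130.3 normalized counts in SI tissue and 21874, 21557 and 22334 in SI monolayers. In LI it held 3273, 3447 and 2722 in tissue and 11940.1, 12649.6 and 12229.7 in monolayers. It rose by 2.38 ± 0.18 in SI and 2.01 ± 0.17 in LI on the log2 scale (adjusted p = 1.2e-06 and 2.7e-06), with no overlap. Sesn2 (sestrin 2), a leucine sensor that restrains mTORC1, held 969, 769 and 925 in SI tissue, 3232, 3342 and 3575 in SI monolayers, 909, 826 and 948 in LI tissue and 2501, 2402 and 2529 in LI monolayers. It rose by 1.96 ± 0.09 and 1.52 ± 0.09 (adjusted p = 1.8e-11 and 1.3e-10) and had the smallest errors of the 4 genes called in both regions. Trib3, a pseudokinase that feeds back on Atf4 and Akt, held 1122, 1009 and 652 in SI tissue and 3733, 3993 and 4016 in SI monolayers. In LI it held 201, 51.3 and 37.5 in tissue and 1261, 1305 and 1122 in monolayers. LI tissue replicate 1 was higher than the other LI tissue libraries in Trib3 and in Chac1, and no tissue library reached its monolayers. Trib3 rose by 2.12 ± 0.41 in SI and 3.73 ± 0.49 in LI (adjusted p = 0.0019 and 1.2e-04), and without LI tissue replicate 1 the LI value was 4.83. Ddit3 (CHOP), the pro-apoptotic factor downstream of Atf4, changed least. It held 728, 892 and 611 in SI tissue and 847, 993 and 947 in SI monolayers, which overlap, and 438, 493 and 403 and 673, 658 and 602 in LI tissue and monolayers, which do not. Its log2 fold changes were 0.36 ± 0.12 and 0.58 ± 0.13, past the test but under 2-fold (adjusted p = 0.022 and 7.3e-04). Exons of Ddit3 share 10.9% of their bases with other genes, among them Mars on the other strand, named after its values were seen, whose own log2 fold changes were 1.35 and 1.53, so its values are less certain than those of the other 5 genes.

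**Figure D3:**
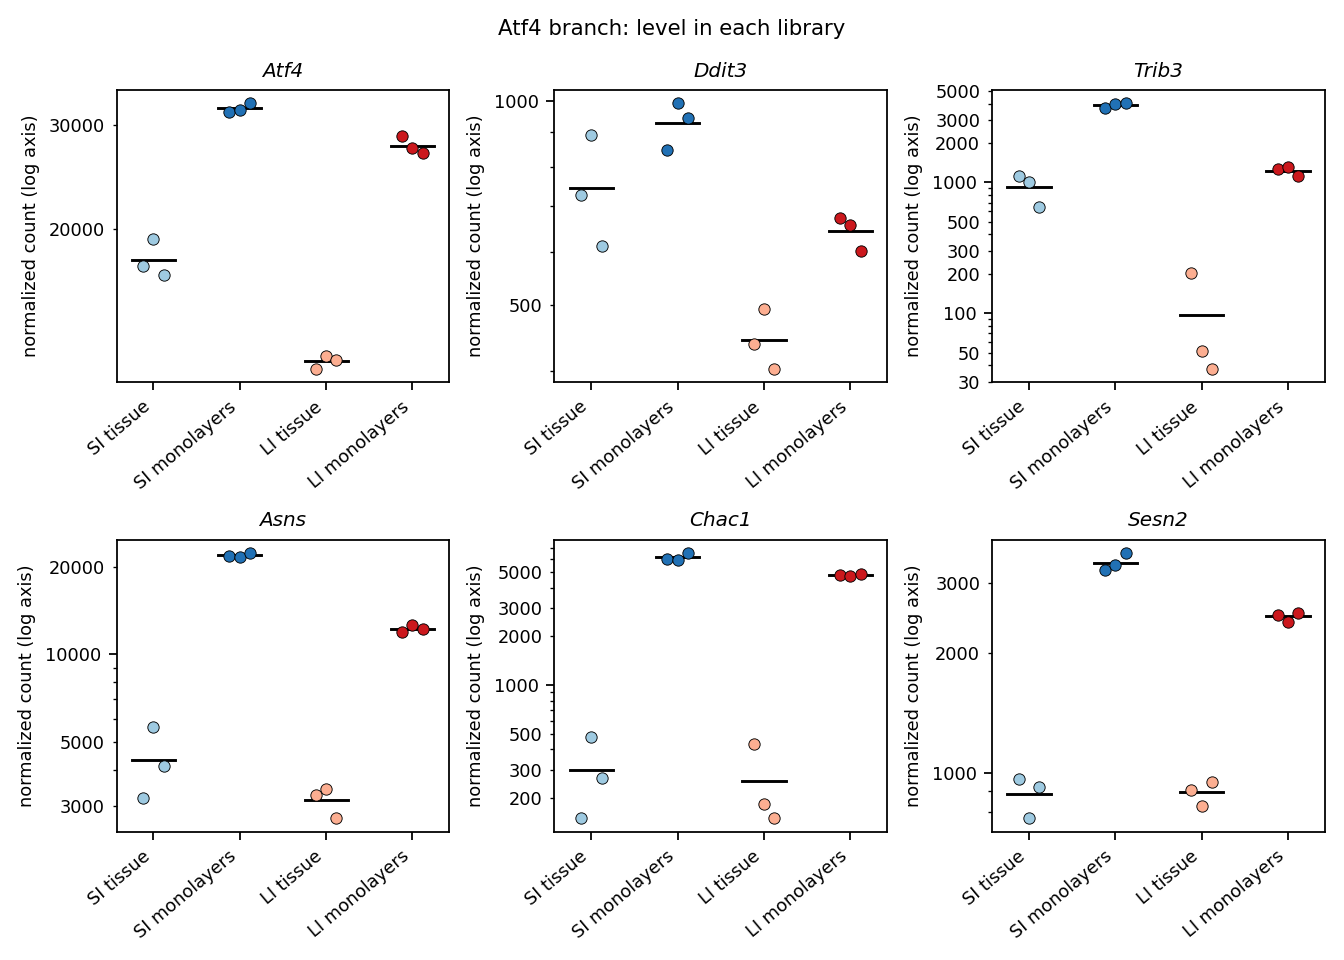
Normalized count of each gene of the Atf4 branch in every library on a log axis, with the mean of each group of 3 as a bar. The monolayer libraries lie above the tissue libraries of the same region in all 6 panels except for an overlap of Ddit3 in SI, and Trib3 in LI tissue spreads from 37.5 to 201.

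The elements in the promoter windows can be set beside these changes. The 9 genes with an ER stress element had log2 fold changes from -1.51 to 0.39 in SI (median 0.01) and from -0.86 to 0.68 in LI (median -0.04). Derl3 in SI was the one of them called. The 4 genes with an ATF4 element had medians of 2.25 in SI and 2.87 in LI, with Trib3, Asns and Chac1 called higher in both and Herpud1 in neither. Atf4, Ddit3 and Sesn2 had no match within these 300 bases. A match is a description of the letters and no evidence of binding.

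The regions were compared in tissue to ask whether the crypts start from different levels, with the limit on isolation given above. SI tissue was called higher than LI tissue for 2 of the 32 genes, Trib3 and Derl3, and lower for 1, Ern2, against 11.6% and 11.1% of all genes tested. With no minimum fold 14 were higher and 10 lower, against 29.2% and 24.7%, or 24 of 32 in all against 53.9%. The libraries did not overlap for 21 of 32, against 58.6% of all genes. Trib3 differed most, with 3.31 ± 0.49 on the log2 scale (adjusted p = 4.1e-04), and without LI tissue replicate 1 the difference was 4.41. Atf4 was 0.61 ± 0.06 higher in SI tissue (adjusted p = 1.2e-07) and Ddit3 0.78 ± 0.13 (adjusted p = 7.1e-05), whereas Asns was 0.50 ± 0.17 (adjusted p = 0.032) with overlapping libraries, and Chac1 (0.28, adjusted p = 0.66) and Sesn2 (0.03, adjusted p = 0.8) did not pass. Among ER genes P4hb was 0.95 ± 0.07 higher in SI tissue, just under 2-fold (adjusted p = 1.2e-08), and without SI tissue replicate 3 the value was 1.04 and was called. Canx was 0.69, Sel1l 0.63 and Hyou1 0.48 higher in SI tissue, and Sdf2l1 (-0.64), Pdia3 (-0.54) and Herpud1 (-0.47) were lower. All 6 of these passed the test under 2-fold.

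In monolayers the regions were compared after the same 24 h in the same medium. SI monolayers were called higher than LI monolayers for 2 of the 32 genes, P4hb and Trib3, and lower for 0 by edgeR and by DESeq2 (5 at an unadjusted p under 0.05), against 12.4% and 8.88% of all genes. P4hb was higher by 1.10 ± 0.07 (adjusted p = 2.4e-09) and Trib3 by 1.70 ± 0.40 (adjusted p = 0.0068). With no minimum fold 14 were higher and 5 lower, against 27% and 24.9%, or 19 of 32 in all against 51.8%. The libraries did not overlap for 25 of 32, against 62.4% of all genes. The Atf4 branch supplied 5 of the 14, with Asns at 0.87 ± 0.17 (adjusted p = 0.0016), Ddit3 at 0.56, Sesn2 at 0.48 and Atf4 at 0.24, while Chac1 gave 0.39 ± 0.38 (adjusted p = 0.44). The 5 that were lower in SI monolayers were Atf6 (-0.55), Dnajb9 (-0.47), Eif2ak3 (-0.32), Edem1 (-0.21) and Dnajc3 (-0.19). This comparison shares its libraries with the monolayer against tissue comparisons.

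Whether the culture change itself differed between regions was tested by the interaction, the SI log2 fold change minus the LI one. It was called for 2 of the 32 genes, both higher, against 11.4% of all genes tested, and for 0 lower by edgeR and DESeq2 (10 at an unadjusted p under 0.05), against 8.51%. The 2 were Sdf2l1 (1.20 ± 0.10, adjusted p = 7.3e-08) and Ern2 (1.71 ± 0.31, adjusted p = 0.0016), each lower in LI monolayers than in LI tissue with a smaller difference in SI. With no minimum fold 10 were higher and 9 lower, against 23.3% and 23%, or 19 of 32 in all against 46.3%. The 3 isomerases Pdia3, Pdia4 and Pdia6 had interactions of 0.54, 0.51 and 0.55 (adjusted p = 7.4e-05, 7.5e-06 and 2.4e-04), and Atf6 and Sel1l had -0.82 and -0.62 (adjusted p = 1.7e-07 and 2.6e-06). Herpud1, opposite to its partner Sel1l, had 0.50 (adjusted p = 5.8e-05). Of the Atf4 branch, Atf4 (-0.37, adjusted p = 9.7e-04) and Sesn2 (0.45, adjusted p = 0.0056) passed the test in opposite directions. Trib3 gave -1.61 ± 0.63 (adjusted p = 0.067), and without LI tissue replicate 1 it gave -2.71 and was called (adjusted p = 5.5e-05). For Chac1 the interaction was 0.11 ± 0.60 (adjusted p = 0.9), an error wide enough to hide a 2-fold difference between regions.

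Ern2 and Derl3 were set beside markers of other cell types, which they followed only in part. Ern2 held 6511, 6522 and 6006 normalized counts in LI tissue and 1487, 1381 and 1476 in LI monolayers, and 1074, 1630.3 and 2342 in SI tissue and 1237, 1288 and 1274 in SI monolayers. LI tissue stood above all other libraries, and SI tissue and SI monolayers overlapped. The log2 fold change was -2.08 ± 0.23 in LI (adjusted p = 1.9e-05) and -0.38 ± 0.22 in SI (adjusted p = 0.17), and SI tissue was -1.87 ± 0.22 against LI tissue (adjusted p = 6.7e-05). The 10 goblet markers (Muc2, Tff3, Agr2 and others) summed to between 423796 and 721486 in SI tissue, 335260.2 and 346475 in SI monolayers, 1252769.7 and 1577633 in LI tissue and 110991 and 123185 in LI monolayers. All 10 were called lower in LI monolayers and 4 of 10 in SI monolayers, against 23.5% and 16.4% of all genes tested. None of the 10 was at 0 in any group. Per 1000 counts of these markers, Ern2 stood at 4.13 to 5.20 in LI tissue against 12 to 13.3 in its monolayers, and at 2.53 to 3.25 in SI tissue against 3.57 to 3.84 in the monolayers of that region. Per 1000 counts of Muc2 alone, Ern2 stood at 64.2 to 79.0 in LI tissue against 108 to 147 in its monolayers, and at 64.9 to 102 in SI tissue against 239 to 283 in the monolayers of that region. Both ratios were higher in monolayers in both regions, the first more so in LI and the second more so in SI. Of the 26 ER genes, 12 fell in LI, Sdf2l1, Pdia3 and Xbp1 among them, and 6 rose, Hspa5 and Atf6 among them. Over all genes tested 36.6% fell and 32.1% rose in LI. The part of goblet cells in these differences was not tested.

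For Derl3 the 10 plasma and B cell markers summed to between 11844 and 43075 normalized counts in SI tissue, 4862 and 26075 in LI tissue, 70.2 and 169.9 in SI monolayers and 334 and 430.4 in LI monolayers. All 9 that could be tested were called lower in both regions, against 16.4% of all genes in SI and 23.5% in LI. In SI monolayers Mzb1 and Tnfrsf17 were at 0 in every library, and Tnfrsf17 was at 0 in every LI monolayer library. Among tissue libraries Derl3 did not follow the sum. LI tissue replicates 1 and 3 had close sums, 5425 and 4862, with 33.8 and 10.7 normalized counts of Derl3, and the SI tissue library with the highest sum (replicate 2) was not the one with the most Derl3 (replicate 3). The part of these cells in the Derl3 difference was not tested.

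**Figure D4:**
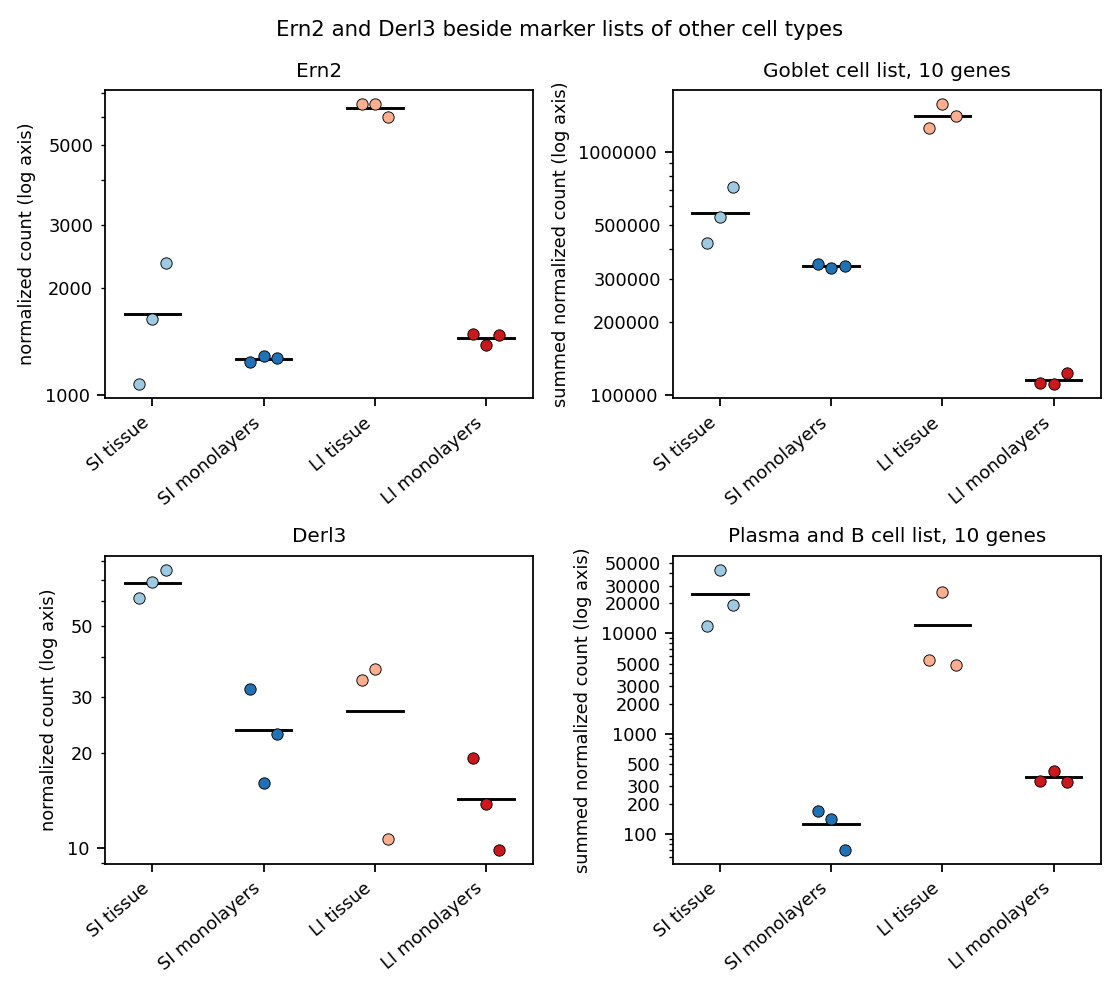
Normalized counts of Ern2 and Derl3 (left) and the summed normalized counts of the 10 goblet markers and the 10 plasma and B cell markers (right) in every library, on log axes, with the mean of each group of 3 as a bar. LI tissue is highest for Ern2 and for the goblet sum, and LI monolayers lie level with SI monolayers for Ern2 but below them for the goblet sum.

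Of 21 further Atf4 targets tested (of 22 listed), 17 were called higher in SI monolayers and 0 lower by edgeR and DESeq2 (2 lower at an unadjusted p under 0.05), and 15 were called higher in LI monolayers and 2 lower. Over all genes tested the shares called higher were 9.71% in SI and 14.5% in LI, and those called lower 16.4% and 23.5%. The medians of the further targets were 2.30 and 1.50, and 13 were called higher in both regions. The share of all genes called higher in both was not counted, and it cannot exceed the 9.71% of SI. Named by the rule, Stc2 (stanniocalcin 2, a secreted glycoprotein) held 24.7, 22.9 and 33.2 normalized counts in SI tissue and 1424, 1779 and 1705 in SI monolayers. In LI it held 2307, 1849 and 1513 in tissue and 744, 782 and 806 in monolayers. It rose by 5.94 ± 0.19 on the log2 scale in SI and fell by 1.23 ± 0.13 in LI (adjusted p = 1.3e-12 and 5.2e-07), and SI tissue was by far the lowest group. Slc7a11, the cystine transporter subunit xCT, held 94.1, 142 and 102 in SI tissue, 3677, 3429.9 and 3199 in SI monolayers, 250.0, 146 and 148 in LI tissue and 639, 667 and 650.2 in LI monolayers, with log2 fold changes of 4.96 ± 0.19 and 1.89 ± 0.18 (adjusted p = 1.4e-10 and 4.4e-07). The other target called lower in LI was Cth, which makes cysteine (-2.51, adjusted p = 8.6e-15), a gene named after its value was seen. Of 12 tRNA synthetases, which charge tRNA and are known Atf4 targets, 11 were called higher in SI and 8 in LI, with 0 called lower by edgeR or DESeq2. In LI, 1 of them was lower at an unadjusted p under 0.05. Cars (cysteine) rose by 1.90 ± 0.15 and 2.55 ± 0.15, and Iars (isoleucine) by 1.32 ± 0.06 and 1.91 ± 0.06 (adjusted p = 2.9e-11 and 1.7e-13). The ATF4 element stood in the windows of 6 of 20 further targets and 5 of 7 synthetases with a window.

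The further ER lists held few calls in SI, and their calls in LI were near the shares over all genes or below them. Of 16 other folding enzymes, 1 was called higher and 1 lower in SI (9.71% and 16.4% of all genes) and 0 and 4 in LI (14.5% and 23.5%). Of 16 genes for entry into the ER, 0 were called in SI by edgeR or DESeq2 (0 higher and 5 lower at an unadjusted p under 0.05), and 0 higher and 3 lower in LI. Of 13 other degradation genes, 0 were called in SI (6 higher and 5 lower at an unadjusted p under 0.05), and 2 higher and 1 lower in LI. The median log2 fold changes in LI were -0.34 for the folding enzymes, -0.38 for the entry genes and 0.33 for the degradation genes. Pdia5, another disulfide isomerase, held 6873, 6615 and 6143 in LI tissue and 1053, 1073 and 997 in LI monolayers (-2.61 ± 0.10, adjusted p = 1.4e-12), against -0.73 in SI. Ero1b, an oxidase that recharges disulfide isomerases, held 1564, 1805 and 1593 in SI tissue and 316, 285 and 259 in SI monolayers (-2.50 ± 0.11, adjusted p = 3.0e-11), and its close relative Ero1a, named after its value was seen, was the folding gene called higher in SI (2.22). Sec11c, a catalytic subunit of the signal peptidase, fell in LI from 10178, 11907 and 11892 to 1914, 1808 and 1823 (-2.57 ± 0.10), and Ssr4, of the translocon-associated complex, fell by 1.42 (adjusted p = 6.9e-12 and 1.0e-11). Erlec1, an ER lectin of degradation, fell in LI by 1.59, and Nploc4, a cofactor of the segregase p97, rose by 1.16 (adjusted p = 3.5e-12 and 4.4e-11). The other genes behind these LI counts, named after their values were seen, were Txndc5 (-1.35), Fkbp2 (-1.05) and Sil1 (-1.65) of the folding enzymes, Sec61b (-1.24) of the entry genes and Ube2j1 (1.12) of the degradation genes.

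Of 7 eIF2alpha kinases and controls, 1 was called higher in each region, against 9.71% of all genes in SI and 14.5% in LI. It was Eif2s1, which codes for eIF2alpha itself (1.01 ± 0.06 and 1.36 ± 0.06). In SI the edgeR value lay just over 2-fold and the call was lost by DESeq2, which called 0 of the 7, and without SI tissue replicate 2 (0.99). Of 6 genes of the CREB3 family, membrane-bound relatives of Atf6, 0 were called higher and 1 lower in SI (1 higher at an unadjusted p under 0.05), and 0 higher and 2 lower in LI. Over all genes 16.4% were called lower in SI and 23.5% in LI, so the count in SI was near its share. The gene in SI was Creb3l3 (-1.68), named after its value was seen. The pair in LI was Creb3l1, with 14384, 13175 and 14144 in tissue and 1348, 1538 and 1568 in monolayers (-3.18 ± 0.09, adjusted p = 6.1e-14), and Creb3l4, with 3464, 3627 and 2847 and 348, 269 and 316 (-3.36 ± 0.26, adjusted p = 9.4e-07). Both are known in secretory cells, and both were called lower in LI, as were the goblet markers and 23.5% of all genes. The part of goblet cells in these differences was not tested.

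**Figure D5:**
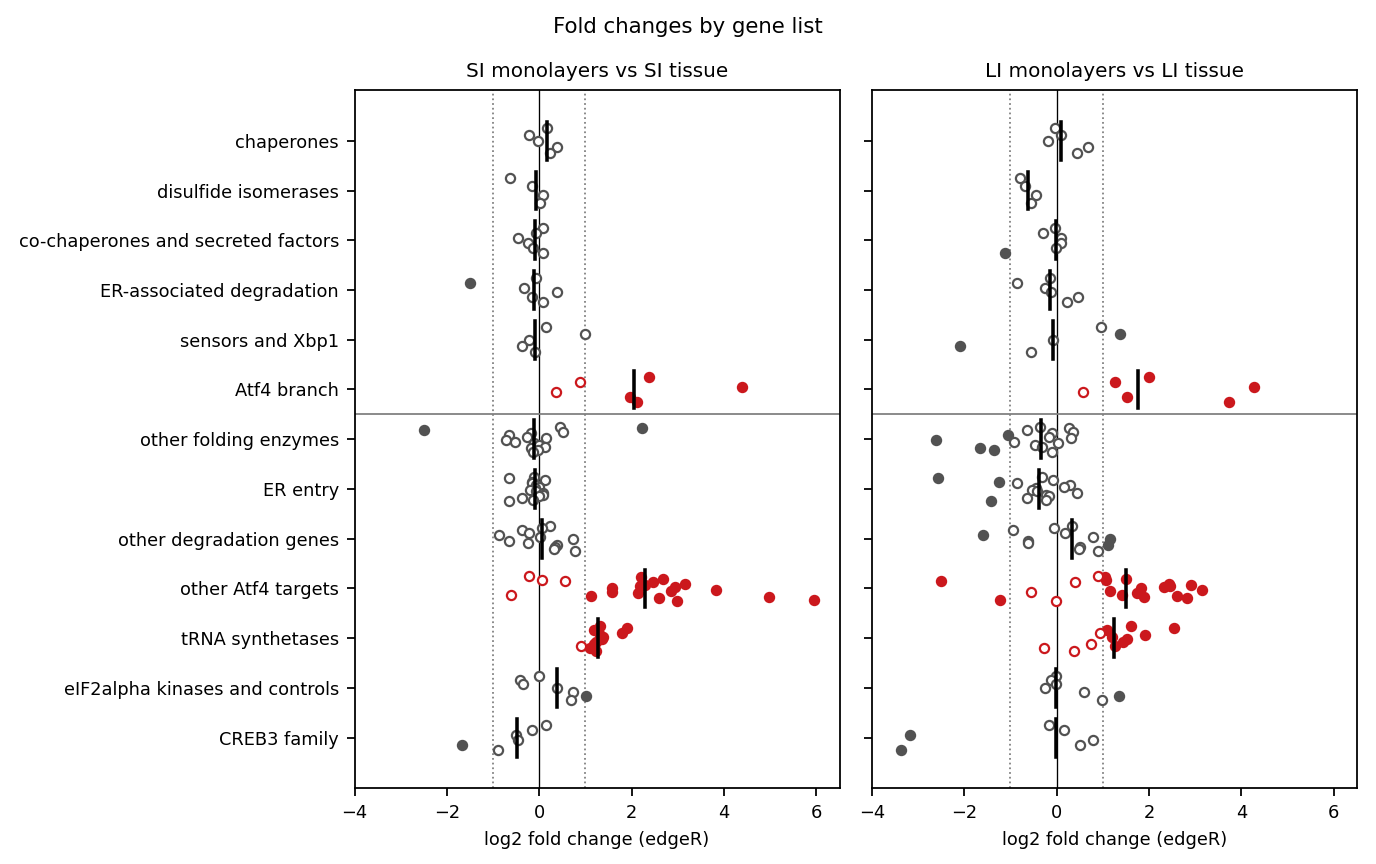
log2 fold change of monolayers over tissue from the edgeR fit in SI (left) and LI (right) for each gene list, with the 6 roles of the 32 genes above the line and the 7 further lists below it. Each point is 1 gene, filled where called, the thick bar is the list's median and the dotted lines mark 2-fold. The Atf4 branch, the other Atf4 targets and the tRNA synthetases, in red, lie to the right, and the ER lists lie around 0.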

How the data were processed

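Libraries of 12 samples were sequenced as read pairs. The authors aligned the reads to GRCm38 with STAR 2.7.9a and deposited raw counts per gene from featureCounts 2.0.2 on GENCODE vM25. The authors also deposited normalized counts (a signal scaled by DESeq2 size factors, with its version given as 3.13), which are the normalized counts printed per library. Whether counting used strand or read pairs is not given in the sources used here. Even values made up 73.4% to 77.4% of the counts from 1 to 20, depending on the library. If both reads of a pair were counted singly, the depths and low counts given here stand for fewer read pairs than counts. This was not tested.

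Raw counts of 55487 genes were analysed with edgeR 4.0.16 in R 4.3.3 (filterByExpr, TMM scaling, robust quasi-likelihood fit of 4 group means, 8 residual degrees of freedom). For 19581 genes the p-values were adjusted by Benjamini-Hochberg over all genes tested, and a call needed an adjusted p under 0.05 and at least 2-fold. Errors of log2 fold changes are standard errors and those of levels are SD. Depth was 59016196 to 76216530 counts per library. Levels per kilobase used exon lengths of a GENCODE annotation of the same build.

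Gene sets and members were chosen with earlier results of these data known. All 32 members are described. From each further pathway list the 2 genes with the largest change were named, among those called in either monolayer against tissue comparison with a mean of at least 500 normalized counts, and any other gene is marked as chosen after its values were seen. Ddit3 matched 2 annotated loci, of which the one with counts was used.

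Alternatives were DESeq2 1.42.0 (Wald test), upper quartile scaling, no filter, at least 10 counts in every library, no minimum fold, the replicate number as a block, a fit of only the groups compared, and leaving out each of the 12 libraries. The counts of the Atf4 lists and the further genes named were put through the same alternatives after the data had been seen. Replicate numbers were checked as pairs: deviations from group means of same-numbered libraries correlated at between -0.05 and 0.06, so they were not treated as pairs. The fit was tested on simulated data.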

Additional observations from a re-analysis of the deposited data

Results flagged for a closer look

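The culture change differed between SI and LI by a test of the difference itself (the edgeR interaction, adjusted over all genes, at least 2-fold) for 15 of the genes named. Of the 32 genes, these were Sdf2l1, with 0.08 ± 0.07 in SI and -1.12 ± 0.07 in LI and a difference of 1.20, and Ern2, with -0.38 ± 0.22 and -2.08 ± 0.23 and a difference of 1.71 on the log2 scale. In each the values of SI tissue and SI monolayers overlapped and those of LI did not.

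Among the further pathway genes the difference was 7.18 for Stc2, which changed in opposite directions, and 3.07 for Slc7a11, which rose in both regions and more in SI. It was 3.07 for Cth, with 0.56 in SI and -2.51 in LI, 1.94 for Ero1a, with 2.22 and 0.28, and -2.18 for Creb3l3, with -1.68 and 0.50. It was 1.88 for Pdia5, 1.91 for Sec11c, 1.32 for Txndc5, 1.46 for Sil1, 1.08 for Sec61b, 2.67 for Creb3l1 and 2.48 for Creb3l4, each of which was lower in LI monolayers by more than in SI. Without LI tissue replicate 3 the value of Sec61b was 0.99 and its call was lost. The difference was -1.85 for Ero1b, which fell more in SI (-2.50) than in LI (-0.64). Over all genes tested 20% had a call of this kind. In LI the 10 goblet markers fell together with Sdf2l1, Ern2, Pdia5, Sec11c, Txndc5, Sil1, Sec61b, Creb3l1 and Creb3l4, and 8 of the 10 markers had a called interaction in the same direction. The part of goblet cells in these differences was not tested.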

How the results depend on the processing

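The counts of called genes among the 32 stayed within 1.5 times of those reported under DESeq2, upper quartile scaling, no filter, a minimum of 10 counts, the fit of only the groups compared and the replicate block, and no called gene of the 32 lost its call under any of these or without any 1 library. With no minimum fold the counts became 12 higher and 9 lower for SI culture, 12 and 12 for LI culture, 14 and 10 for tissue, 14 and 5 for monolayers, and 10 and 9 for the interaction. Without 1 library the lower count of the interaction ranged from 0 to 1, the 1 being Trib3 without LI tissue replicate 1 (-2.71, adjusted p = 5.5e-05 by edgeR, against -1.61 and 0.067). Of 2848 values compared, 85 changed sign, and in all 85 the adjusted p was at least 0.05 in both fits and the value reported was at most 0.28. Of the further pathway genes named, put through the same alternatives after the data had been seen, Eif2s1 in SI gave between 0.95 (a minimum of 10 counts) and 0.99 (without SI tissue replicate 2) where its call was lost, upper quartile scaling and DESeq2 among them. Creb3l4 in SI was called without SI tissue replicate 1 (-1.10), and Ube2j1 in LI lost its call by upper quartile scaling. Upper quartile scaling moved the median of all genes in LI culture by -0.12 and each other comparison by less than 0.1. Changes in LI of about that size, such as those of Herpud1 and Derl1 (both -0.13), may depend on the scaling. The counts with no minimum fold were taken from the main fit alone.

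With the replicate block 5017 genes were called in SI culture against 5110 without it, and 7367 against 7442 in LI culture. Chac1 gave 4.41 in SI and 4.30 in LI with the block, and no call among the 32 changed. Same-numbered libraries correlated no more than others did (medians of -0.003 and 0.002), which gave no ground to treat them as pairs. With 3 libraries a group this check cannot show whether libraries shared animals.

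Precision is limited by 3 libraries a group. Trib3 and Chac1 carry wide errors from their tissue libraries, and Derl3 rests on at most 75.3 normalized counts in a library.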

Other observations

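Within the ER genes the balance of chaperones and disulfide isomerases shifted in both regions. The 5 chaperones took 0.232% ± 0.00886 of all counts in SI tissue and 0.272% ± 0.00397 in SI monolayers, and 0.228% ± 0.00900 and 0.257% ± 0.00104 in LI (mean ± SD, n = 3). The 4 disulfide isomerases took 0.320% ± 0.00959 and 0.250% ± 0.00230 in SI, and 0.270% ± 0.0125 and 0.161% ± 0.00169 in LI. In shares of counts, isomerases thus outweighed chaperones in both tissues and were outweighed by them in both monolayers. These shares are not scaled by exon length, which was 7230 bases for Hyou1 and 2861 for P4hb. Which set outweighs the other therefore depends on this measure, and sums per kilobase were not compared. P4hb, in SI, and P4hb with Pdia3, in LI, gave most of the lower isomerase share, and Hspa5 gave most of the higher chaperone share. No test was run on these sums.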
